A study of Mus musculus with 6 samples.

Results

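The Agilent mouse array used for the livers of soy-fed mice carries probes that were placed on stretches of the genome instead of on named transcripts. These were taken as the non-control probes whose systematic name in the scanner output is an interval beginning with chr, a rule that uses no measured value. They numbered 4450 of 56605 probes (7.86%), and are called interval probes here. Male mice, 12 weeks old when the diets began, were fed for 4 weeks. They received 100% granulated regular food (control, n = 3) or 75% regular food with 25% soy bean powder (soy, n = 3). Their liver RNA was then compared. One single-colour array was hybridised per mouse, the labels name no other treatment, and the strain is not given in the sources used here. The arrays lay on 3 slides. Slide 1 held control 1, control 2 and soy 1, slide 2 held soy 2 alone, and slide 3 held control 3 and soy 3. The median raw spot signal of an array lay between 154.5 (control 3) and 185 (soy 1), over median local backgrounds of 54 to 59. The number of arrays limits the precision of every value below.

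Intervals of this kind are mostly candidates for long intergenic noncoding RNAs (lincRNAs), which are transcribed from stretches between protein-coding genes and do not encode a protein. Many such RNAs are kept in the nucleus, some act near the gene from which they are transcribed, and as a class they are known for low abundance and for expression restricted to few tissues. A candidate interval marks where transcription was once seen or predicted, on one strand or on both, and does not by itself say that a liver cell makes a stable RNA there.

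The interval probes covered 3230 distinct intervals on the mm9 build (NCBI 37), the build that the file headers name. A single probe served 2262 intervals, 782 had 2 probes and 186 had more than 2, up to 8. On 832 intervals both strands were probed, and the probes were split almost evenly into 2227 for the forward and 2222 for the reverse strand, with 1 unstranded. The intervals ran from 62 to 538251 bases, with a median of 10601. Intervals within 10000 bases of each other on a chromosome were joined into 1903 loci. Of the probes, 3732 lay in loci with at least 2 interval probes, so that most members lay near another and do not stand for separate loci.

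Hepatocyte markers checked the labelled tissue. All 6 of them, with albumin (Alb) the brightest, were well above background on all 6 arrays. Of 36 marker genes for hepatocytes and 7 other cell types none passed the soy against control test. The 4 markers of exocrine pancreas, with Ctrb1 the brightest, were all lower in soy (median log2 difference -0.42), and the smallest adjusted p among them was 0.0724 for Cela2a, the pancreatic elastase. Of the 4, 2 were detected on all arrays. Their signals summed to 3300, 4364 and 3539 in control livers and to 2386, 2571 and 2362 in soy livers. The 4 markers of red cells and neutrophils, with the haemoglobin gene Hba-a1 the brightest, were all higher in soy (median 0.50, smallest adjusted p 0.445). Their signals summed to 168712, 125163 and 180319 in control livers and to 138437, 283795 and 165106 in soy livers, which overlapped. The part of either list in the results below was not tested. In bulk liver, fewer cells of a type and less RNA per cell cannot be told apart.

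Fewer interval probes were detected in soy livers. A probe counts as detected where Feature Extraction marked it well above background, a mark it sets against the noise around the spots of that array. The detected interval probes made up 55.3%, 52.3% and 57.4% of the class on control arrays 1, 2 and 3. On the soy arrays they made up 39.5%, 40.9% and 41.5%. The groups did not overlap, with 55.0% ± 2.6 in control and 40.6% ± 1.0 in soy livers (SD, n = 3, exact permutation test, two-sided, p = 0.1). With 3 arrays against 3 this test cannot give a smaller p than 0.1. The difference was -14.4 percentage points over all arrays, -14.3 within slide 1 and -15.9 within slide 3.

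All kinds of probes shared this direction, and the interval probes had the widest gap of those compared. Probes for RefSeq mRNAs (accessions beginning with NM) were detected at 71.6% ± 1.3 in control and 64.0% ± 1.0 in soy (SD, n = 3), a difference of -7.65 percentage points. Probes for RefSeq noncoding RNAs (NR) went from 42.1% ± 1.8 to 33.3% ± 0.90, a difference of -8.90 points. Detection of interval probes divided by that of mRNA probes came to 0.775, 0.742 and 0.786 in control livers and to 0.627, 0.639 and 0.639 in soy livers. The 2 groups of ratios did not overlap, and the exact permutation test (n = 3 per group) again gave its smallest p of 0.1.

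The lowest signal at which any probe was detected also differed between the groups. The lowest normalized signal (log2) of any detected probe was 6.28, 6.32 and 6.22 in control and 6.42, 6.78 and 6.61 in soy livers, higher on each soy array than on each control array. Each of these values is set by a single probe, and brighter probes could go undetected, such as A_30_P01030147 with 7.41 on soy 1. At a fixed normalized signal of 7 (log2), a measure added after the data were seen, the difference was smaller. At or above it lay 45.3%, 44.3% and 44.7% of them in control and 44.2%, 44.3% and 43.6% in soy livers, with the lowest control array (44.34%) just above the highest soy array (44.29%; exact permutation test, p = 0.1). The difference of -0.73 percentage points was -0.60 within slide 1 and -1.06 within slide 3. For mRNA probes the difference was 0.056 points, and for RefSeq noncoding probes it was 0.69 points, from 34.9% to 35.6%. How far a higher limit of the mark on soy arrays accounts for the lower detection was not tested.

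Detection patterns over the arrays showed the same skew. Of the interval probes, 1624 (36.5%) were detected on no array and 1605 (36.1%) on all 6. Among mRNA probes 23.2% were detected on no array and 60.9% on all 6. Detected on all 3 control and on no soy array were 323 interval probes (7.26%), against 4.48% of all probes, and detected on all 3 soy and on no control array were 0, against 0.00883% (5 probes) of all. Split into 4 parts of equal number by length, the shortest intervals, of 62 to 1736 bases, had the lowest detection, 46.8% in control and 33.1% in soy livers. In the longer parts it was 57.4% to 58.1% in control and 42.1% to 44.2% in soy. Among the chromosomes, X had the lowest detection (43.9% in control, 28.2% in soy, 174 probes) and chromosome 14 the highest (63.8% and 52.2%, 186 probes).

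The normalized signals of the class were low and alike between the diets. The median interval probe had a signal of 6.86, 6.84 and 6.86 (log2) in control and of 6.84, 6.84 and 6.82 in soy livers, and the groups overlapped. The 95th percentile was 11.8, 11.8 and 11.9 in control and 11.8, 11.9 and 11.6 in soy, again with overlap. The median mRNA probe had a mean of 8.19 in control and 8.21 in soy livers.

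The diets were then compared probe by probe with limma. To pass, a probe needed a fold change outside 0.66 to 1.5 and an adjusted p under 0.05. Of the interval probes 7 passed (0.157%), 1 higher and 6 lower in soy, where 0.35% of all probes passed (0.208% higher, 0.141% lower). The share that passed higher, 0.0225%, was below that background, and the share that passed lower, 0.135%, was close to it. Among probes detected on all 6 arrays, 4 of 1605 interval probes passed (0.249%), beside 0.63% of all probes so detected. These were 1 higher (0.0623%, all probes 0.384%) and 3 lower (0.187%, all probes 0.245%). The count depended on single arrays. Leaving out control 1 or control 2 gave 3, leaving out control 3 gave 7, of which 3 were among the 7 of the full comparison, leaving out soy 2 gave 1, and leaving out soy 1 or soy 3 gave 0. Over all probes the 198 that passed became 102, 71 and 203 without control 1, 2 and 3, and 50, 25 and 27 without soy 1, 2 and 3. With slide in the model 1 passed (25 of all probes), the higher one, where soy 2 has a slide of its own. The split changed with the processing. Of the probes that passed, 1 of 7 was higher after quantile normalization. After a shift of each array to its 75th percentile 4 of 9 were higher, and 5 of these 9 were among the 7. The Agilent processed signal carries another background correction and was also shifted to the 75th percentile. With it, 848 of 965 were higher, and the part of each change in this was not tested. Over all 56605 probes, 299 passed after the 75th-percentile shift and 13138 with the processed signal. Of these 848, 822 were detected on no array. Among interval probes detected on all 6 arrays the processed signal gave 14 higher and 33 lower. These processed-signal counts stand without a split of all probes by direction or detection, so they are not set against a background.

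After quantile normalization, small differences leaned towards lower values in soy livers. The median log2 difference of the interval probes was -0.046, beside -0.010 for all probes and -0.0023 for mRNA probes. The sign of the class median depended on the processing. It was 0.047 with the processed signal (all probes 0.13) and 0.13 with the 75th-percentile shift (all probes 0.13), differing from that of all probes by -0.079 and -0.0054. After quantile normalization, below 0 were 60.7% of the interval probes and 52.4% of all probes. Detected on all 6 arrays, interval probes had a median of -0.079 and mRNA probes one of 0.0045, and 68.6% of the former and 49.1% of the latter were below 0. Their gap of -0.083 lay between -0.043 (without soy 3) and -0.12 (without control 2) over the settings tried, including the processed signal (-0.094) and the 75th-percentile shift (-0.056). All soy arrays lay below all control arrays for 12.3% of the interval probes, beside 10.3% of all probes, and above them for 4.11%, beside 7.75%. An unadjusted limma p under 0.05 went with a lower value for 285 interval probes (6.40%, all probes 6.14%) and with a higher one for 95 (2.13%, all probes 5.34%). Among probes detected on all 6 arrays these shares were 10.3% lower (all probes 8.93%) and 3.99% higher (all probes 9.16%). A log2 difference of 1 or more was seen for 17 interval probes (0.382%, all probes 0.581%) and of -1 or less for 12 (0.27%, all probes 0.459%).

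The 1 interval probe that rose was A_30_P01018914, forward strand, on chr9:78107225-78118850. Its normalized signal was 10.41, 9.50 and 9.72 in control and 13.92, 12.59 and 13.28 in soy livers (means 9.87 ± 0.47 and 13.26 ± 0.66, SD, n = 3). Every soy array lay above every control array by more than the range within either group. The rise was 3.39 (log2, SE 0.35, adjusted p = 0.0176), or 10.5-fold, the largest change of the class, and it was 3.96 within slide 1 and 3.56 within slide 3. It passed without control 1 (0.0349), control 3 (0.0470) and soy 2 (0.0350), and not without control 2 (adjusted p = 0.0567), soy 1 (0.0540) or soy 3 (0.0728).

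Among the 6 that fell, 2 shared a locus on chromosome 17 and the reverse strand. A_30_P01030657, on chr17:22335458-22466521, had signals of 8.57, 7.98 and 8.31 in control and of 6.53, 6.87 and 6.89 in soy livers. A_30_P01029664, on chr17:22420025-22457650, an interval inside the first, had signals of 8.15, 7.59 and 7.98 in control and of 6.71, 6.67 and 6.65 in soy livers. Both were detected on all 3 control arrays and on no soy array, so their levels in soy livers are uncertain. The measured signal was lower in soy by 2.87-fold for the first (adjusted p = 0.0235) and by 2.34-fold for the second (adjusted p = 0.0284). No smallest fold is given, since a soy array can leave brighter probes undetected, such as A_30_P01030147 with 7.41 on soy 1. In these quantile-normalized signals the log2 differences were -1.52 and -1.23. With the 75th-percentile shift these were -1.35 and -1.06, and with the processed signal -2.85 and -2.86. With 1 array left out, both probes passed only without control 2 (0.0398 and 0.0396). Otherwise they had adjusted p from 0.0545 to 0.0936 and from 0.0576 to 0.12.

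A_30_P01032373 lay on the reverse strand of chr6:100165695-100166101, a short interval of 407 bases. Its signals were 9.29, 8.87 and 9.21 in control and 7.72, 7.84 and 7.82 in soy livers, with tight soy values well below all controls. It fell by 1.33 (SE 0.13, adjusted p = 0.0163, the smallest of the class) and was detected on all 6 arrays. It passed without control 1 (0.0463), control 2 (0.0362) or control 3 (0.0414), and not without soy 1 (0.0627), soy 2 (0.0717) or soy 3 (0.0706).

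A_30_P01033319, forward strand of chr9:96635508-96654148, had signals of 8.83, 8.44 and 8.22 in control and of 7.44, 7.37 and 7.41 in soy livers. It was detected on all 6 arrays and fell by 1.09 (SE 0.16, adjusted p = 0.0451). With 1 array left out it passed only without control 3 (0.0398), and had adjusted p from 0.0574 to 0.166 in the other fits. A_30_P01021125, forward strand of chr1:44915250-44944125, had signals of 7.72, 7.87 and 7.61 in control and of 6.98, 7.03 and 6.77 in soy livers. It was detected on all control and on no soy arrays. In quantile-normalized signals its measured level in soy was 1.75-fold lower (adjusted p = 0.0477), a log2 difference of -0.81. That difference was -0.65 with the 75th-percentile shift and -1.64 with the processed signal. A_30_P01022167, forward strand of chr8:122947917-122948153, had signals of 10.51, 10.54 and 10.73 in control and of 9.93, 9.77 and 9.86 in soy livers. It was detected on all 6 arrays and fell by 0.74 (SE 0.11, adjusted p = 0.0460). Neither of these last probes passed with any 1 array left out (adjusted p from 0.0696 to 0.161 and from 0.0861 to 0.167). With the 75th-percentile shift, cyclic loess and a normexp offset of 16, A_30_P01033319 did not pass (adjusted p = 0.0501, 0.058 and 0.071), nor did A_30_P01021125 (0.0995, 0.0627 and 0.0764). With the offset of 16 A_30_P01022167 did not pass either (0.104). In all 3 probes every soy array lay below every control array, and the direction was the same within slide 1 and within slide 3.

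The 7 probes that passed and the 4 near-threshold rises described further on lay at 9 loci, which held 28 other interval probes. As every probe that passed was set apart, none of these 28 had passed. Their log2 differences ran from -0.50 to 0.91 with a median of -0.058, and the smallest adjusted p was 0.109. At the chromosome 9 locus of the probe that rose, A_30_P01020518, also on the forward strand, had signals of 14.32, 14.00 and 14.50 in control and of 15.26, 14.91 and 15.16 in soy livers. Its groups did not overlap either, with a difference of 0.84 (SE 0.16, adjusted p = 0.0908), which did not pass. A_30_P01027697, on the very interval and strand of the probe that rose, was detected on no array and differed by -0.082.

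The chromosome 17 locus held 6 interval probes, 4 of them on the reverse strand. Another reverse-strand probe, A_30_P01033171, differed by -0.50 (adjusted p = 0.232) and the last, A_30_P01030119, by -0.050, although it lay on the interval of A_30_P01029664 and was detected on all arrays. The forward-strand probe of that interval, A_30_P01018656, differed by 0.012. At the chromosome 8 locus, with 8 interval probes of which 7 were detected on all arrays, the differences ran from -0.74 for the probe that fell to 0.54 (adjusted p = 0.109) for A_30_P01021038, a forward-strand probe of an interval that spans it. On chromosome 6, A_30_P01018537 and A_30_P01024565, on both strands of an interval around the probe that fell, differed by -0.11 and 0.00014, the second without detection on any array. The reverse-strand probe opposite A_30_P01033319, A_30_P01019322, differed by -0.092, and that opposite A_30_P01021125, A_30_P01024252, by 0.061 without detection on any array.

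Beyond the probes that passed, 14 more interval probes had an adjusted p under 0.1, from 0.0531 to 0.0961. With those that passed they made 21 (0.472%), 6 higher and 15 lower, where 1.07% of all probes reached that level. Of the 21, 17 were detected on all 6 arrays, 1.06% of the interval probes so detected, beside 1.98% of all probes so detected. The 9 lower ones differed by -0.53 to -1.90. The largest 3 of these, chosen after their values were seen, were detected on all arrays without overlap between the groups. A_30_P01030988, reverse strand of chr16:90103524-90104408, read 12.25, 11.81 and 10.89 in control and 10.19, 9.57 and 9.50 in soy livers, a difference of -1.90 (SE 0.34, adjusted p = 0.0824). A_30_P01021461, forward strand of chr2:119697845-119719245, read 10.22, 9.16 and 9.15 in control and 7.72, 7.72 and 7.78 in soy livers, a difference of -1.77 (SE 0.27, adjusted p = 0.0531). Control 1 was highest in both. A_30_P01025410, reverse strand of chr9:51905865-51911474, read 12.33, 11.77 and 11.55 in control and 10.72, 10.70 and 10.65 in soy livers, a difference of -1.19 (SE 0.19, adjusted p = 0.0593). These 3 probes were not followed under other settings.

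The 4 higher ones of largest difference, A_30_P01020518 among them, all had soy arrays above all control arrays. With the 75th-percentile shift, A_30_P01019928, A_30_P01032418 and A_30_P01031677 passed (adjusted p = 0.0479, 0.0485 and 0.05 as rounded), and A_30_P01020518 did not (0.0735). All 4 passed with the processed signal (0.0018 to 0.0147). With cyclic loess, the offset of 16 or any 1 array left out, none of them passed. A_30_P01031677, reverse strand of chr15:102026122-102033725, had signals of 7.48, 7.24 and 7.79 in control and of 8.40, 8.22 and 8.46 in soy livers, a difference of 0.85 (SE 0.15, adjusted p = 0.0825). Of the 7 interval probes of its locus, 4 were detected on all arrays and differed by 0.16 to 0.91. The other 3 were detected on some arrays or on none and differed by 0.082 to 0.55, and none of the 7 passed in the full comparison. The largest of these, of A_30_P01026346, was set by soy 3, which read 9.33 where soy 1 and soy 2 read 7.74 and 7.24.

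A_30_P01019928, forward strand of chr12:83271350-83357214, read 7.38, 7.44 and 7.28 in control and 8.40, 7.91 and 8.05 in soy livers, a difference of 0.75 (SE 0.14, adjusted p = 0.0907). A second probe of that interval and strand, A_30_P01021600, differed by -0.15. A_30_P01032418, reverse strand of chr14:55671783-55680316, read 8.04, 7.79 and 7.69 in control and 8.49, 8.44 and 8.55 in soy livers, a difference of 0.65 (SE 0.12, adjusted p = 0.0809). Here the second reverse-strand probe, A_30_P01020880, differed by 0.40 (adjusted p = 0.19), detected on 1 array of each group, and the forward-strand probe, A_30_P01032172, by -0.23.

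Probes detected in control livers alone mostly differed little in signal. Of the 323 interval probes with this pattern, the 3 largest differences were those of both chromosome 17 probes and of A_30_P01019860, reverse strand of chr8:41730287-41746862. The last read 6.90, 8.68 and 7.24 in control and 6.68, 6.57 and 6.58 in soy livers. Control 2 stood far above the other controls, all of which lay above the soy arrays, and the measured difference was -0.999 (adjusted p = 0.408). Without control 2 it was -0.46. The median difference of the 323 probes was -0.172, close to the -0.165 of all probes with this pattern.

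The interval probes with the highest mean signal did not pass. A_30_P01027122, reverse strand of chr1:193875525-193978800, read 18.4, 18.6 and 18.5 in control and 18.7, 18.5 and 18.9 in soy livers, a difference of 0.18 with overlap (SE 0.13, adjusted p = 0.643). Next came both strands of chr12:73838608-73862621. The forward probe, A_30_P01020570, had a mean of 17.80 in control and 17.83 in soy livers, and the reverse probe, A_30_P01031264, one of 17.42 and 17.35. A_30_P01031448 (forward strand of chr14:78924115-78938125) and A_30_P01026230 (forward strand of chr2:31714946-31716972) differed by -0.030 and 0.055. Signals of different probes are not comparable as RNA levels, since each probe binds with its own strength.

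Of the 832 intervals probed on both strands, 193 had a probe detected on all 6 arrays on each strand, 359 on one strand alone (177 forward, 182 reverse) and 280 on neither. In the 193, the soy minus control differences of the strands, averaged over the probes of a strand, correlated with Pearson r = 0.177 and Spearman rho = 0.182. Both were below 0 for 94, both above 0 for 25, and 74 had opposite signs. For 80 single strands of an interval with at least 2 such probes, the correlation was r = 0.438 (rho = 0.383), taking the first 2 probes by name, and 23 had opposite signs. These correlations describe intervals measured on the same 6 arrays and were not tested. The median gap between the paired differences was 0.17 across strands and 0.14 within a strand.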

How the data were processed

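The files deposited by the authors are, per the file headers, Feature Extraction 11.5.1.1 output of single-colour Agilent arrays. Per the file headers, the deposited intensity values are spot and local background medians with no background correction or scaling between arrays, and a processed signal that the program had corrected for background. Detection and outlier marks stand beside them. The authors also deposited a log2 table of the same spots, normalization not given in the sources used here, which tracked the raw log2 signals (r = 0.9997). Here median intensities were background corrected (normexp, offset 50), quantile normalized, log2 transformed, cleared of outlier spots and averaged per probe. This dampens low signals, so fold changes of dim probes are understated. The fit was repeated from the processed signal, which was also scaled to the 75th percentile. It was repeated with other background settings (none, offset 16), scalings (cyclic loess, 75th percentile) and eBayes options, over detected probes, and with outliers kept. Further fits used a replicate or slide block or the deposited log2 table, went by adjusted p alone, or left out single arrays. All 56605 probes were fitted with limma 3.58.1 (R 4.3.3) and adjusted by Benjamini-Hochberg, with the paper's thresholds. The fit was tested on simulated data. Detection shares were compared by an exact permutation test over arrays. Summaries used Python 3.11.15 with pandas 2.3.3.

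Named were members that passed, or up to 5 per direction with adjusted p under 0.1, the 5 of highest signal, the 3 largest differences among those detected in 1 group only, and other members at their loci, chromosome 18 excepted (185 counted, not named). Members and lists were chosen with earlier results of these data known. Marker genes were matched through RefSeq accessions (GRCm38.p6 table). An mm9 genome, its annotation and probe sequences were not used here, so intervals are given without neighbouring genes.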

Additional observations from a re-analysis of the deposited data

How the results depend on the processing

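The 7 interval probes that passed became 4 with a normexp offset of 16 and 18 with only detected probes tested (6 higher, 12 lower, the named near-threshold rises among them). That filter kept probes detected on all arrays of either diet, which let in 323 detected in control alone, and 15 of the 18 (6 higher, 9 lower) were detected on all 6 arrays. The count was 965 with the processed signal, 7 with no background correction, with outlier spots kept, with the deposited log2 table or by adjusted p alone, 9 with trend and robust eBayes or the 75th-percentile shift, and 5 with cyclic loess. Over all probes, 198 passed, 77 with offset 16, 497 of 32376 with only detected probes tested, 13138 with the processed signal, 290 with trend and robust eBayes, 299 with the 75th-percentile shift, 187 with cyclic loess, 78 with the replicate block and 25 with slide. With 1 array left out the interval probes that passed ranged from 0 to 7, and all probes that passed from 25 to 203. The replicate number as a block left 1, as did slide. Same-numbered arrays deviated together with r = 0.116, -0.057 and 0.106, and differently numbered ones with r from -0.202 to 0.105. As arrays numbered 1 shared a slide, and so did those numbered 3, these values cannot tell whether the numbers pair the mice. The median log2 difference of the class was -0.062 with offset 16, 0.047 with the processed signal, 0.13 with the 75th-percentile shift, -0.021 with cyclic loess, -0.094 over detected probes, -0.062 with slide as a block, and -0.059 to -0.033 with 1 array left out. The processed signal and the 75th-percentile shift moved the median of all probes to 0.13 as well, and against it the class lay at -0.079 and -0.0054. The cause was not tested. Detection kept its direction throughout, from -15.7 to -13.1 percentage points with 1 array left out and at -13.5 with the positive-and-significant mark. Alternatives were followed for 17 named probes, not for the other probes at their loci or for the 3 near-threshold falls. Among the 17, signs turned for 3 bright ones near 0. A_30_P01020570 was -0.014 with the 75th-percentile shift and with slide as a block, and ranged from -0.046 to 0.085 with 1 array left out, A_30_P01031264 from -0.15 to 0.064 and A_30_P01031448 from -0.17 to 0.13. There were 3 arrays per group, and 1624 interval probes were well above background on no array. How small a difference among dim probes could be resolved was not tested.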

Other observations

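Some loci carried many interval probes without a probe that passed. The largest, chr1:138442536-138632310, held 19, of which 8 were detected on all 6 arrays and 6 on none, and their log2 differences ran from -0.73 to 0.72 with a median of -0.073 and a smallest adjusted p of 0.146. On chr13:94180737-94203935 lay 15 interval probes, 5 of them detected on all arrays, with differences from -0.52 to 0.14. On chr12:110842154-110988678 lay 14, of which 1 was detected on all arrays and 8 on none, with differences from -0.24 to 0.94. On chr6:30983012-31293337 lay 13, of which 8 were detected on all arrays and 0 on none, with differences from -0.83 to 0.56, a median of -0.12 and a smallest adjusted p of 0.0825. These loci were picked for their number of probes, after the data were seen.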
